A study of Mus musculus with 8 samples.

Results

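The BCL2 family sets whether the outer membrane of the mitochondrion stays closed or is opened during apoptosis. Anti-death members hold the pore-forming members and their activators in check, pore-forming members open the membrane once released, and BH3-only members respond to stress by blocking the anti-death members or by activating the pore formers directly. Once the membrane is open, cytochrome c leaves the mitochondrion and starts the caspase cascade. MCL1 is needed from the earliest embryo, and mouse embryos without it fail around implantation. The set described here holds 10 genes taken from a list of symbols by a rule that uses no measured value. The members were, however, chosen with earlier results of these data known. They were found in the count table by Ensembl identifier, and they are 10 of the 55385 genes counted. By role, 4 members are anti-death (Bcl2, Bcl2l1, Bcl2l2 and Mcl1), 2 are pore-forming (Bak1 and Bok) and 4 are BH3-only (Bcl2l11, Bid, Bad and Bik), so that 6 are pro-death. All 10 members were among the 17445 genes with enough counts to be tested.

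The libraries came from R1 mESCs, a mouse embryonic stem cell line labelled as wild type, in which Eftud2, encoding a GTPase of the U5 snRNP in the spliceosome, was knocked down (KD). The groups were shRNA1 (3 libraries; a hairpin against the 3′ UTR of Eftud2), shRNA2 (3 libraries; a hairpin against its coding sequence) and nt-shRNA (2 libraries; a non-targeting hairpin), and the labels call the libraries of a group biological replicates. All groups shared N2B27 medium with 2i and LIF, 2 days of lentiviral infection and 3 days of puromycin selection, so every library comes from selected survivors. Libraries of poly(A) RNA, read from both ends over 100 bp, gave between 19569525 and 29871048 assigned fragments each, and 3 fragments equal 0.1004 to 0.1533 CPM (the count as a share of its library, on a fixed scale) at these depths.

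Levels are given as TMM-normalized CPM, which correct for depth and composition, and differences as log2 fold changes from edgeR's quasi-likelihood test, with p-values adjusted by Benjamini-Hochberg over all tested genes and a gene called at an adjusted p under 0.05. Eftud2 itself stood at 262 and 256 CPM in the nt-shRNA libraries, at 232, 229 and 225 CPM with shRNA1 and at 198, 202 and 235 CPM with shRNA2. All 6 KD libraries lay below both controls, and the difference was -0.29 ± 0.0678 (SE; edgeR adjusted p = 0.00122) for shRNA2 and -0.18 ± 0.0678 (edgeR adjusted p = 0.0514) for shRNA1. The shRNA1 difference passed the test in 8 of 19 other settings, among them the replicate block (-0.21; edgeR adjusted p = 0.0206) and the DESeq2 Wald test (-0.18; 0.0487), and over all 19 it ran from -0.29 (gene length offsets with the block) to -0.065 (library size alone; edgeR adjusted p = 0.498). The shRNA2 difference passed in all 19 and was weakest with GC content offsets (-0.19; edgeR adjusted p = 0.0186). The 8 markers of embryonic stem cells summed to between 6583 and 6974 CPM in every library, although 5 of them were called under shRNA1 (3 higher, 2 lower) and 7 under shRNA2 (5 higher, 2 lower), from 1.32 for Klf4 to -0.96 for Dppa5a under shRNA2. Of the fibroblast markers, Col3a1, Dcn and Postn had at most 3 counts in each library. Of the other 3, Col1a2 was called higher under both hairpins (1.27 and 1.66; edgeR adjusted p = 0.0103 and 0.000429), from 0.2999 to 1.58 CPM over the libraries, and the differences of Col1a1 and Thy1 (0.23 to 0.43) were not called. The whole list of 6 fibroblast markers summed to 4.599 to 4.99 CPM with nt-shRNA, 6.47 to 7.34 CPM with shRNA1 and 6.28 to 7.57 CPM with shRNA2. The primitive endoderm list summed to 23.2 to 23.7 CPM with nt-shRNA, 22.01 to 26.1 CPM with shRNA1 and 17.6 to 19.5 CPM with shRNA2, where 1 of its 4 tested genes, Gata6, was called (-0.75; edgeR adjusted p = 0.000815; 0 of 4 were called under shRNA1), and the part of any of these lists in the results was not tested.

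Under both hairpins, the anti-death genes Bcl2l1 and Bcl2l2 fell to 0.770-fold and 0.756-fold (shRNA1) and to 0.860-fold and 0.809-fold (shRNA2) of nt-shRNA, with the shRNA2 call of Bcl2l1 close to the threshold (edgeR adjusted p = 0.0488) and lost in 15 of 19 other settings. Under shRNA2, the pro-death genes Bid and Bok rose 1.37-fold and 1.43-fold, and the sparse transcript of Bik fell by 1.03 on the log2 scale. Against the direction of Bcl2l1 and Bcl2l2, the anti-death gene Bcl2, at under 1 CPM, rose 1.84-fold under shRNA2 (edgeR adjusted p = 0.0262), a call lost in 6 of 19 other settings, among them without either nt-shRNA library. Mcl1, the most abundant member, passed the test under neither hairpin. These are levels in bulk RNA, in which fewer cells carrying a transcript and less transcript per cell cannot be told apart.

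**Figure D1:**
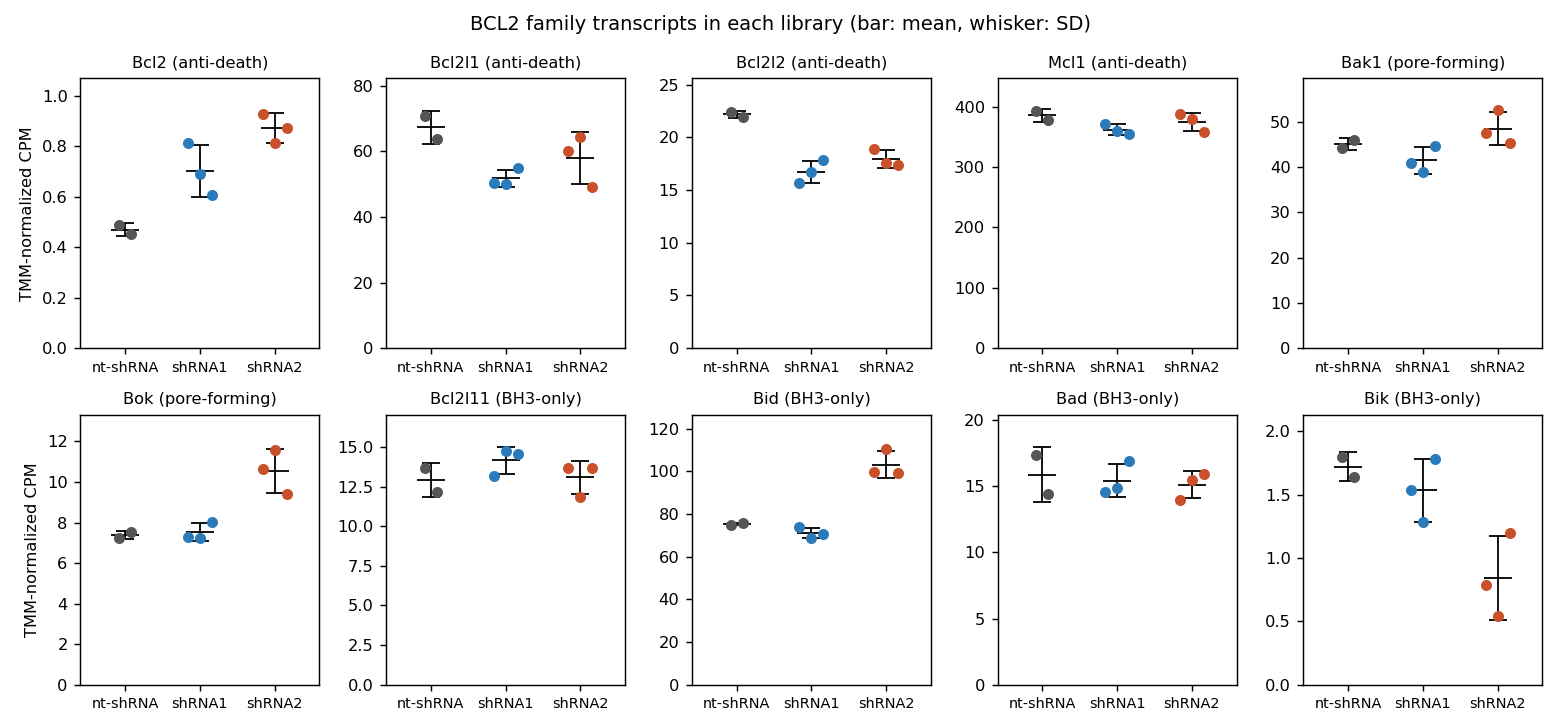
TMM-normalized CPM (vertical axes, each starting at 0) of the 10 members in every library, grouped by hairpin; points are libraries, the horizontal bar is the group mean and the whisker the SD. The 3 shRNA2 libraries lie above all others for Bid (99.0 to 111 CPM) and Bok (9.41 to 11.6 CPM), and all 6 KD libraries lie below both controls for Bcl2l2.

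The start regions of 4 members are shown because these are the members above 2 CPM that were called against nt-shRNA: Bcl2l1 and Bcl2l2 as lower under both hairpins (Bcl2l1 under shRNA2 in only 4 of 19 other settings) and Bid and Bok as higher under shRNA2. They are RefSeq promoter sequences (GRCm38.p6), cut to the bases before both the RefSeq start and the first base of the gene in the GENCODE annotation, and written 5′ to 3′ on the strand of the gene, with capitals marking a GC box (GGGCGG on either strand, so also CCGCCC), the site read by SP-family factors. Bcl2l1 is chr2:152831729-152831978 (minus strand), Bcl2l2 chr14:54883175-54883376 (plus strand), Bid chr6:120916854-120917074 (minus strand) and Bok chr1:93685325-93685574 (plus strand).
Bcl2l1: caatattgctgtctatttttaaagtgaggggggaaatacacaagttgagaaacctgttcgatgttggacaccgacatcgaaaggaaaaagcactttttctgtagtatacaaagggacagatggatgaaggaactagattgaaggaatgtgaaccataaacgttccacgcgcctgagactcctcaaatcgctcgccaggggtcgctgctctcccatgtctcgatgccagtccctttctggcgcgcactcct
Bcl2l2: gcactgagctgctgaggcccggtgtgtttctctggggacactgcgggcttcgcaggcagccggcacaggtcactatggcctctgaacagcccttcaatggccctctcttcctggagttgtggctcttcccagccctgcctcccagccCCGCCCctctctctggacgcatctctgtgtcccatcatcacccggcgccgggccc
Bid: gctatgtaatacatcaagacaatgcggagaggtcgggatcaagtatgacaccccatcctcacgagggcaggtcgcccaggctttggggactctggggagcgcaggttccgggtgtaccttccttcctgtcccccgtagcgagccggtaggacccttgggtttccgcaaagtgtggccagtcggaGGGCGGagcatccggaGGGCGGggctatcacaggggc
Bok: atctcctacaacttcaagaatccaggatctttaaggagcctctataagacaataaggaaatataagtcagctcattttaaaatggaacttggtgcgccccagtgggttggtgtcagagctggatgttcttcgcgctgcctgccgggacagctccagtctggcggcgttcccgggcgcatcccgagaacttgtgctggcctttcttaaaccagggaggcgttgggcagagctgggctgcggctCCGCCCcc
The Bid stretch holds 2 GC boxes, those of Bcl2l2 and Bok hold 1 each, and that of Bcl2l1 holds 0. In the whole windows of 300 bases, RefSeq start regions were found for 9 of the 10 members (13 windows, since some genes have several starts). A GC box was in 8 of the 13 windows, against 35.7% of all 32851 windows, and CCAAT on either strand was in 3, against 37.4%. A TATA box (TATAAA), an E-box (CACGTG) and the p53 half-site were each in 0 of the 13 windows, against 13.6%, 7.15% and 8.36% of all windows. These matches are descriptions of letters in a window.

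Among the anti-death members, Mcl1 encodes a short-lived protein that must be made continuously. Its levels were 394 and 378 CPM with nt-shRNA, 372, 359 and 355 CPM with shRNA1 and 387, 380 and 358 CPM with shRNA2. The shRNA1 libraries lay just below both controls, whereas the shRNA2 libraries overlapped them. The difference was -0.09 for shRNA1 (95% interval -0.22 to 0.03; edgeR adjusted p = 0.258) and -0.04 for shRNA2 (-0.16 to 0.09; edgeR adjusted p = 0.596), so a change of more than 0.22 on the log2 scale lay outside both intervals. With offsets for GC content, the Mcl1 difference under shRNA1 was -0.16 and passed the test (edgeR adjusted p = 0.0279).

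Bcl2l1 (chr2:152780668-152831728, GRCm38) encodes BCL-XL, which holds BAX and BAK in check. Its levels were 70.8 and 63.9 CPM with nt-shRNA, 50.4, 50.1 and 54.9 CPM with shRNA1 and 60.1, 64.5 and 49.1 CPM with shRNA2. All shRNA1 libraries were below both controls, but shRNA2 replicate 2 lay between them. Bcl2l1 fell by 0.38 under shRNA1 (SE 0.0913; edgeR adjusted p = 0.004) and fell by 0.22 under shRNA2 (SE 0.0913; edgeR adjusted p = 0.0488). The shRNA2 call was kept in only 4 of the 19 other settings, and among those that ended it were the replicate block (-0.19; edgeR adjusted p = 0.092), GC content offsets (-0.053; 0.619), leaving out nt-shRNA replicate 1 (-0.14; 0.33) and leaving out shRNA2 replicate 3, the lowest library (-0.11; 0.247). The shRNA1 call was lost without nt-shRNA replicate 1, where the difference was -0.30 (edgeR adjusted p = 0.0821), and with GC content offsets and the block the difference was -0.23 and called.

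Bcl2l2 (chr14:54883377-54888234, GRCm38) encodes BCL-w, a close relative of BCL-XL. Its levels were 22.4 and 21.9 CPM with nt-shRNA, 15.7, 16.7 and 17.8 CPM with shRNA1 and 18.9, 17.6 and 17.3 CPM with shRNA2. The KD groups overlapped each other and neither reached the controls. Bcl2l2 fell by 0.40 under shRNA1 (SE 0.0935; edgeR adjusted p = 0.00285) and fell by 0.31 under shRNA2 (SE 0.0935; edgeR adjusted p = 0.0095). The shRNA1 call stood in all 19 other settings. Under shRNA2 it was lost without nt-shRNA replicate 1 (-0.29; edgeR adjusted p = 0.0635) and with scaling by library size alone (-0.22; edgeR adjusted p = 0.0591).

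Bcl2, the founding member of the family, was barely transcribed in these cells, with 13 to 20 counts in a library. It stood at 0.487 and 0.453 CPM with nt-shRNA, 0.812, 0.691 and 0.606 CPM with shRNA1 and 0.930, 0.812 and 0.872 CPM with shRNA2, and both KD groups lay above the controls. Bcl2 rose by 0.88 under shRNA2 (SE 0.324; edgeR adjusted p = 0.0262), and was 0.56 higher under shRNA1 (SE 0.333; edgeR adjusted p = 0.21). The shRNA2 call was kept in 13 of the 19 other settings and was lost without shRNA2 replicate 1 (edgeR adjusted p = 0.0637), without nt-shRNA replicate 1 (0.0877) and without nt-shRNA replicate 2 (0.129). The DESeq2 Wald test gave an adjusted p of 0.173. The other 3 anti-death members had negative differences from nt-shRNA under both hairpins, although those of Mcl1 turned slightly positive with scaling by library size alone (and, for shRNA2, with gene length offsets and the block) and that of Bcl2l1 under shRNA2 with GC content offsets and the replicate block.

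Of the pore-forming members, Bok encodes a protein that is held at low levels by degradation at the endoplasmic reticulum and can open membranes without activation by BH3-only proteins. Bok (chr1:93685660-93695764, GRCm38) was at 7.23 and 7.53 CPM with nt-shRNA, at 7.31, 7.26 and 8.02 CPM with shRNA1 and at 10.6, 11.6 and 9.41 CPM with shRNA2. Each shRNA2 library was above every other library, and the shRNA1 libraries overlapped the controls. Bok rose by 0.51 under shRNA2 (SE 0.128; edgeR adjusted p = 0.00216), and the call stood in all 19 other settings, with the highest value of 0.78 under GC content offsets with the block. The shRNA1 difference was 0.03 (95% interval -0.24 to 0.31; edgeR adjusted p = 0.879).

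Bak1 encodes BAK, which sits in the outer mitochondrial membrane and forms pores once freed from MCL1 and BCL-XL. Its levels were 44.2 and 46.0 CPM with nt-shRNA, 40.8, 38.9 and 44.7 CPM with shRNA1 and 47.6, 52.5 and 45.3 CPM with shRNA2. The controls lay between the KD groups and overlapped both. The differences from nt-shRNA were -0.12 for shRNA1 and 0.10 for shRNA2 (edgeR adjusted p = 0.282 for each). Under shRNA2, Bak1 did pass the test in 3 of the 19 other settings. These were GC content offsets (0.29, edgeR adjusted p = 0.00176), GC content offsets with the block (0.31, edgeR adjusted p = 0.000819) and library size alone (0.19, edgeR adjusted p = 0.0465). Of its exonic bases, 25.5% are shared with Ggnbp1, and fragments in such bases were not assigned. The more abundant Ggnbp1 entry was called lower under shRNA1 (-0.74, edgeR adjusted p = 0.00286) and under shRNA2 (-1.23, edgeR adjusted p = 1.15e-05). Its sparse second entry, with at most 13 counts in a library, was called under neither.

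Among the BH3-only members, Bid showed the clearest change. Its product joins the death-receptor branch to the mitochondrial branch, since caspase-8 cuts BID into an active fragment. Bid (chr6:120891930-120916853, GRCm38) stood at 75.0 and 75.7 CPM with nt-shRNA, at 73.7, 68.7 and 70.7 CPM with shRNA1 and at 99.8, 111 and 99.0 CPM with shRNA2. The shRNA2 libraries were above all others with a wide gap, and the shRNA1 libraries were just below the controls. Bid rose by 0.45 under shRNA2 (SE 0.0671; edgeR adjusted p = 1.28e-05), a call that stood in all 19 other settings, whereas the shRNA1 difference was -0.08 (95% interval -0.22 to 0.06; edgeR adjusted p = 0.363). Bid shares 17.7% of its exonic bases with Bcl2l13 on the other strand, and Bcl2l13 moved the other way under shRNA2 (-0.16; edgeR adjusted p = 0.0327).

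Bik, which acts at the endoplasmic reticulum, was the only pro-death member to fall. Its level was 1.799 and 1.64 CPM with nt-shRNA, 1.53, 1.28 and 1.78 CPM with shRNA1 and 0.791, 0.541 and 1.19 CPM with shRNA2, from 12 to 50 counts in a library. All shRNA2 libraries were below all others, and shRNA1 overlapped the controls. Bik fell by 1.03 under shRNA2 (SE 0.286; edgeR adjusted p = 0.00497), and this call stood in all 19 other settings, with differences between -1.36 and -0.78. Under shRNA1 the difference was -0.15 (95% interval -0.68 to 0.39; edgeR adjusted p = 0.703), an interval that still allows a sizeable fall.

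Bcl2l11 and Bad passed the test in neither comparison. Bcl2l11 encodes BIM, which binds all anti-death members, and it ranged from 11.9 to 14.8 CPM over the 8 libraries with all groups overlapping. Its differences were 0.13 (95% interval -0.10 to 0.37) for shRNA1 and 0.02 (-0.22 to 0.25) for shRNA2. Bad encodes a protein that 14-3-3 proteins hold in the cytosol when growth factor signalling is on, and it ranged from 13.95 to 17.4 CPM with all groups overlapping. Its differences were -0.04 (-0.27 to 0.20) for shRNA1 and -0.07 (-0.30 to 0.17) for shRNA2. In other settings the sign turned for Bad under both hairpins and for Bcl2l11 under shRNA2, while Bcl2l11 under shRNA1 kept its sign in all 19 and passed the test in 0 of them.

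The number of members called was close to what the genes as a whole showed. Under shRNA1, 0 of the 10 members were called higher and 2 lower, where 13.8% of all tested genes were called higher and 17.1% lower. Under shRNA2, 3 members were called higher and 3 lower, where 27.2% of all tested genes were higher and 28.7% lower. The median difference of the members was -0.09 under shRNA1 and -0.01 under shRNA2, beside -0.0069 and 0.0040 over all tested genes. The family as a set therefore did not stand out by its counts, and what the data hold is in the single members. Both comparisons use the same 2 nt-shRNA libraries, so that a high or low control moves both.

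**Figure D2:**
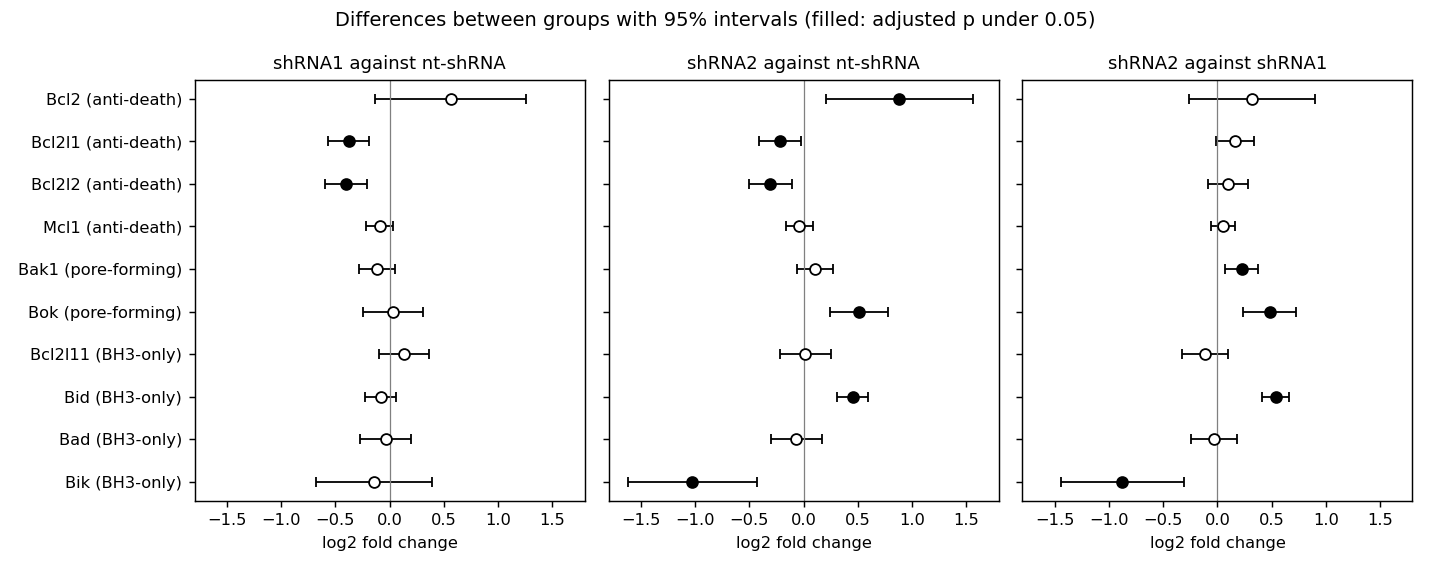
Log2 fold changes (horizontal axes) of the 10 members in the 3 comparisons, with 95% intervals; filled points have an edgeR adjusted p under 0.05. Bcl2l1 and Bcl2l2 lie left of 0 in both comparisons with nt-shRNA, while Bid (0.45) and Bok (0.51) have filled points right of 0 where shRNA2 is compared with nt-shRNA, and open points near 0 for shRNA1 against nt-shRNA.

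To see whether the hairpins themselves differed, shRNA2 was compared directly with shRNA1, a comparison without the nt-shRNA libraries on either side. All 4 calls were pro-death genes. Bid was higher with shRNA2 by 0.54 (SE 0.0601; edgeR adjusted p = 3.79e-06), Bok by 0.48 (SE 0.116; edgeR adjusted p = 0.00331) and Bak1 by 0.22 (SE 0.0729; edgeR adjusted p = 0.023), and Bik was lower (-0.88; SE 0.272; edgeR adjusted p = 0.0166). In each of these 4 genes the shRNA1 and shRNA2 libraries did not overlap, and the share of all tested genes without overlap was not counted. Of all tested genes, 16.9% were called higher and 18.7% lower in this comparison, against 3 and 1 of the 10 members.

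The calls of Bid and Bok between the hairpins stood in all 19 other settings. That of Bak1 was lost without shRNA1 replicate 1 (0.21; edgeR adjusted p = 0.0675), without shRNA1 replicate 2 (0.18; 0.112) and without shRNA2 replicate 2 (0.16; 0.115). That of Bik was lost without shRNA1 replicate 3 (-0.75; 0.0804), without shRNA2 replicate 1 (-0.84; 0.0552), without shRNA2 replicate 2 (-0.64; 0.0963) and in the DESeq2 Wald test (-0.88; 0.0557). None of the 4 anti-death members was called between the hairpins as reported. Their differences were 0.32 (95% interval -0.26 to 0.90) for Bcl2, 0.16 (-0.02 to 0.33) for Bcl2l1, 0.10 (-0.08 to 0.28) for Bcl2l2 and 0.05 (-0.06 to 0.16) for Mcl1. Bcl2l1 was called between the hairpins with GC content offsets (0.24; edgeR adjusted p = 0.0221), with these and the replicate block (0.23; 0.0108) and without shRNA2 replicate 3 (0.26; 0.00745). The left-out library had the highest Eftud2 level of its group, 235 CPM against 198 and 202 CPM. Within its group it had the lowest Bcl2l1, Bcl2l2, Mcl1, Bak1, Bok and Bid and the highest Bcl2l11, Bad and Bik. Its Bcl2 level lay between those of the other shRNA2 libraries. Some of these ranks were near ties, such as Bcl2l11 (13.68 against 13.67 CPM in replicate 1) and Bid (99.0 against 99.8 CPM in replicate 1). A link of these ranks to the Eftud2 level was not tested.

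Transcript amounts of different members were compared per length, as TPM, the counts divided by the deposited gene lengths and scaled to a common total. In the nt-shRNA libraries, Mcl1 was first with a mean of 327 TPM (SD 13.9), followed by Bid with 61.6 (SD 4.83), Bak1 with 54.4 (SD 5.50) and Bcl2l1 with 42.5 (SD 0.0597). Across these libraries the values of Bid and Bak1 overlapped, but by deposited length Bid was above Bak1 within each of the 8 libraries. Of the exonic bases, 25.5% of Bak1 and 17.7% of Bid are shared with other genes. The order of Bid and Bak1 without shared bases was not worked out. Lower down came Bad with 17.9 TPM, Bcl2l2 with 14.4, Bok with 11.6, Bcl2l11 with 4.66, Bik with 3.13 and Bcl2 with 0.149 TPM. Shared bases make up 13.3% of the exonic bases of Bcl2l2 and 0% of those of Bok. By deposited length, which counts shared bases, the order was the same in both KD groups except that Bok stood above Bcl2l2 there. This pool of anti-death transcript was thus made up almost wholly of Mcl1, which took 84.9% to 88.2% of the summed anti-death TPM in every library.

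As a summary of the balance, the summed TPM of the 4 anti-death members was divided by that of the 6 pro-death members within each library. The ratio was 2.56 and 2.45 with nt-shRNA, 2.47, 2.50 and 2.29 with shRNA1 and 2.13, 1.93 and 1.98 with shRNA2. The shRNA1 libraries overlapped the controls, and every shRNA2 library was below every other library. Group means were 2.51 ± 0.0737 (SD, n = 2), 2.42 ± 0.114 (SD, n = 3) and 2.01 ± 0.108 (SD, n = 3). No test was made of this ratio. It also leaves out other pro-death genes that are not among the 10, and these went in both directions under shRNA2. The pore-forming gene Bax was called higher (0.22). The BH3-only genes Bbc3 (-0.34), Pmaip1 (-0.37) and Bmf (-0.98) were called lower. A ratio with these genes added was not worked out, so the ratio describes the 10 members and not the whole family.

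Part of the lower ratio with shRNA2 went with Bid, which made up 45.8% to 46.4% of the pro-death TPM there, against 38.04% to 41.5% in the other libraries. Without Bid in the sum, the shRNA2 ratios were 3.59 to 3.94 and still below the 4.12 to 4.25 of nt-shRNA, but they overlapped the 3.69 to 4.22 of shRNA1. Without Mcl1, the ratio was 0.359 to 0.387 with nt-shRNA, 0.292 to 0.308 with shRNA1 and 0.243 to 0.284 with shRNA2. In that form both KD groups lay below the controls and did not overlap each other. The ratio within a library does not depend on the depth of the library, but it counts transcripts, not proteins, and it adds all splice forms of a gene. Mcl1 and Bcl2l1 each give rise to splice forms with opposite roles, and these were not told apart.

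**Figure D3:**
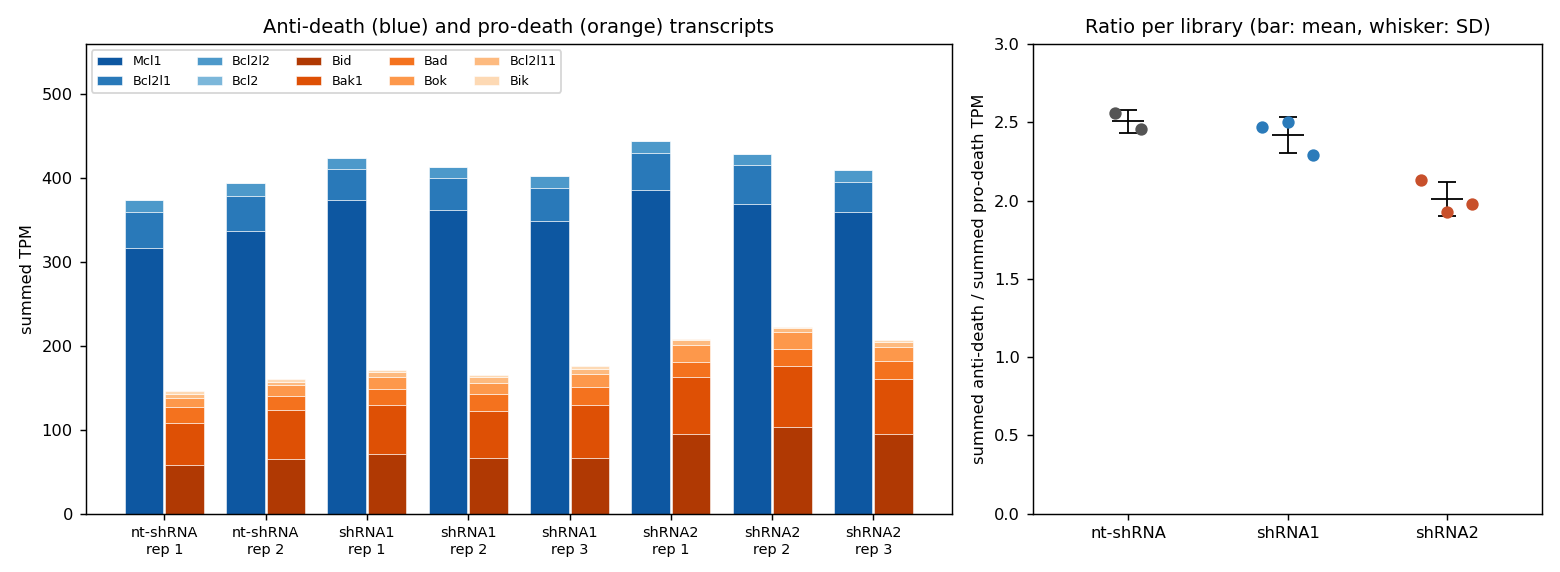
Left, summed TPM (vertical axis) of the anti-death members (blue) and pro-death members (orange) in each library, stacked by gene; right, the ratio of the sums per library by group, with mean (bar) and SD (whisker). Mcl1 fills most of every blue column, and the shRNA2 ratios of 1.93 to 2.13 lie below the 2.29 to 2.56 of all other libraries; TPM heights should be compared within a library.

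**Figure D4:**
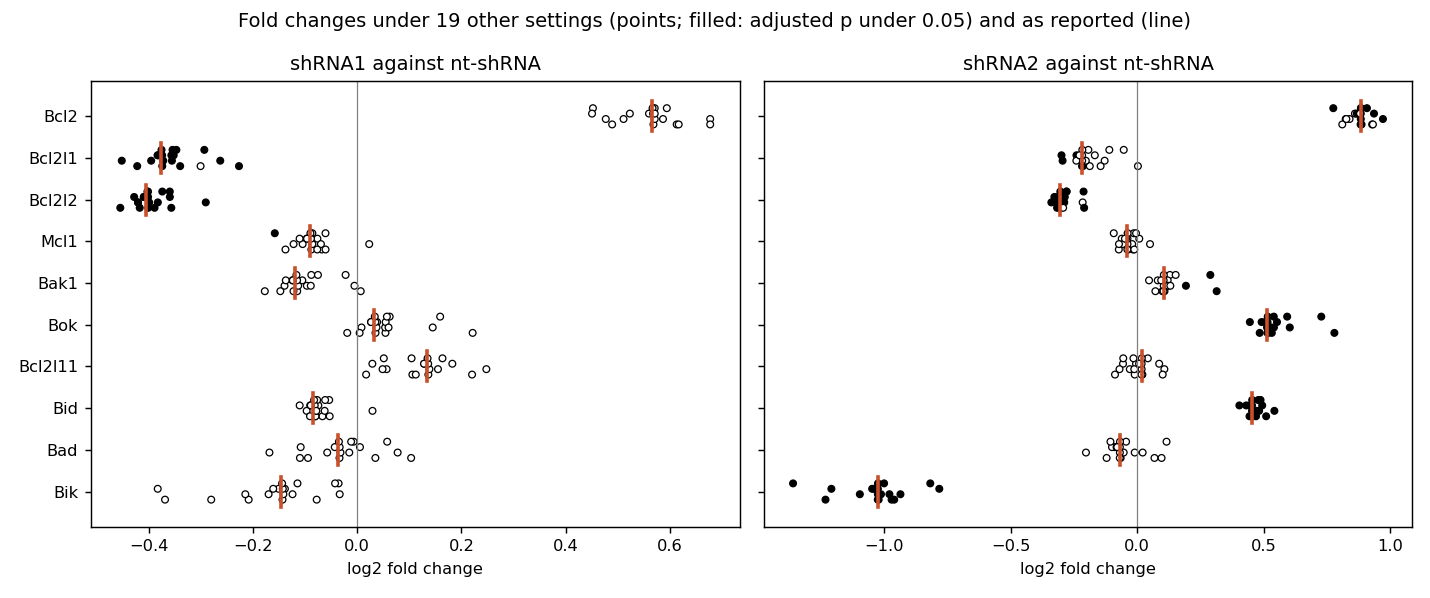
Log2 fold changes (horizontal axes) of the 10 members under each of the 19 other settings (points; filled where the adjusted p is under 0.05) and as reported (vertical line), for each hairpin against nt-shRNA. Bid, Bok and Bik are filled throughout under shRNA2 and open throughout under shRNA1, whereas Bcl2l1 under shRNA2 runs from filled points to values near 0.

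Of 15 other BCL2 family genes, 10 were tested. Under shRNA1, 0 of the 10 were called higher and 4 lower, beside 13.8% and 17.1% of all tested genes. Under shRNA2, 1 was called higher and 6 lower, beside 27.2% and 28.7%. The medians of the list were -0.24 and -0.36. Bcl2a1a, Bcl2a1b and Bcl2a1d, anti-death genes of blood cells, had 0 counts in all 8 libraries, and Bcl2l10 and Bcl2l15 reached at most 5 and 7 counts.

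The steepest change in this list was in Bnip3, a hypoxia-induced receptor that marks mitochondria for removal by autophagy. It stood at 49.1 and 70.0 CPM with nt-shRNA, 23.95, 20.7 and 28.4 CPM with shRNA1 and 8.05, 5.998 and 10.3 CPM with shRNA2, with no overlap between any of the groups. Bnip3 fell by 1.28 under shRNA1 (SE 0.149; edgeR adjusted p = 3.96e-06) and fell by 2.88 under shRNA2 (SE 0.166; edgeR adjusted p = 1.33e-10). Its paralogue Bnip3l, with the same function, fell by 0.42 and fell by 0.76 (edgeR adjusted p = 6.81e-05 and 1.28e-08). Both were also lower with shRNA2 than with shRNA1, by -1.59 and -0.34 (edgeR adjusted p = 1.73e-06 and 0.000251).

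Bax, the pore former that is drawn from the cytosol to mitochondria, was at 121 and 115 CPM with nt-shRNA, 105, 106 and 110 CPM with shRNA1 and 135, 159 and 118 CPM with shRNA2. It was called higher under shRNA2 (0.22; SE 0.0867; edgeR adjusted p = 0.0411), although shRNA2 replicate 3 lay between the controls, and without shRNA2 replicate 2 the difference was 0.10 (edgeR adjusted p = 0.23), whereas with GC content offsets and the block it was 0.49. Leaving out other libraries ended this call too: shRNA2 replicate 1 (edgeR adjusted p = 0.0636), nt-shRNA replicate 1 (0.08), nt-shRNA replicate 2 (0.228), shRNA1 replicate 1 (0.0532) and shRNA1 replicate 2 (0.052). Under shRNA1 the Bax difference was -0.14 (edgeR adjusted p = 0.241), and between the hairpins Bax was higher with shRNA2 by 0.35 (edgeR adjusted p = 0.00175). The BH3-only genes Bbc3 and Pmaip1, well-known p53 targets, and Bmf, which responds to loss of attachment, were named after their values were seen. Bbc3 fell under both hairpins, with differences of -0.36 for shRNA1 (edgeR adjusted p = 0.0299) and -0.34 for shRNA2 (edgeR adjusted p = 0.0242). For shRNA1, replicate 3 at 40.6 CPM lay between the Bbc3 controls of 37.4 and 47.5 CPM. Under shRNA2, Pmaip1 fell by 0.37 (edgeR adjusted p = 0.000157) and Bmf fell by 0.98 (edgeR adjusted p = 1.57e-06), and under shRNA1 the differences were -0.08 (edgeR adjusted p = 0.412) and -0.31 (edgeR adjusted p = 0.0531).

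Downstream of the mitochondrion, calls went in both directions. All 15 genes of the caspase list were tested, with 2 called higher and 1 lower under shRNA1 (13.8% and 17.1% of all tested genes) and 5 higher and 4 lower under shRNA2 (27.2% and 28.7% of all), shares near those of all genes under shRNA2. The list's medians were -0.0034 and 0.02. Cycs, which encodes cytochrome c, rose by 0.39 under shRNA1 (edgeR adjusted p = 0.000267) and by 0.57 under shRNA2 (edgeR adjusted p = 1.28e-06), with all KD libraries above both controls. With GC content offsets these differences were 0.23 and 0.38 and still called. Birc6, a large inhibitor of apoptosis with ubiquitin ligase activity, rose by 0.22 and by 0.37 (edgeR adjusted p = 0.0118 and 6.14e-05). The shRNA1 call of Birc6 was lost without nt-shRNA replicate 2 (0.17; edgeR adjusted p = 0.157) and without shRNA1 replicate 2 (0.19; 0.0596), as it was with GC content offsets (0.10; 0.146) and with gene length offsets (0.06; 0.473), while with library size alone it was 0.33 (0.000463). Under shRNA2 Birc6 was 0.22 with length offsets and still called.

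Among the genes that fell in this list, Casp6, an effector caspase, fell by 0.71 under shRNA2 (SE 0.112; edgeR adjusted p = 2.68e-05), and its shRNA1 difference was -0.23 (edgeR adjusted p = 0.115). With the replicate block, Casp6 was called under shRNA1 too (-0.30; edgeR adjusted p = 0.0344), as it was with GC content offsets (-0.30; 0.0305), with these and the block (-0.37; 0.00577) and with length offsets and the block (-0.33; 0.0181). Birc2, which encodes the ubiquitin ligase cIAP1, fell by 0.23 under shRNA1 (edgeR adjusted p = 0.0107) and fell by 0.40 under shRNA2 (edgeR adjusted p = 3.83e-05). The shRNA1 call of Birc2 was lost without either nt-shRNA library (edgeR adjusted p = 0.0968 without replicate 1 and 0.056 without replicate 2) and without shRNA1 replicate 2 (0.0585), and with library size alone (-0.12; 0.179), while with GC content offsets and the block the difference was -0.42.

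**Figure D5:**
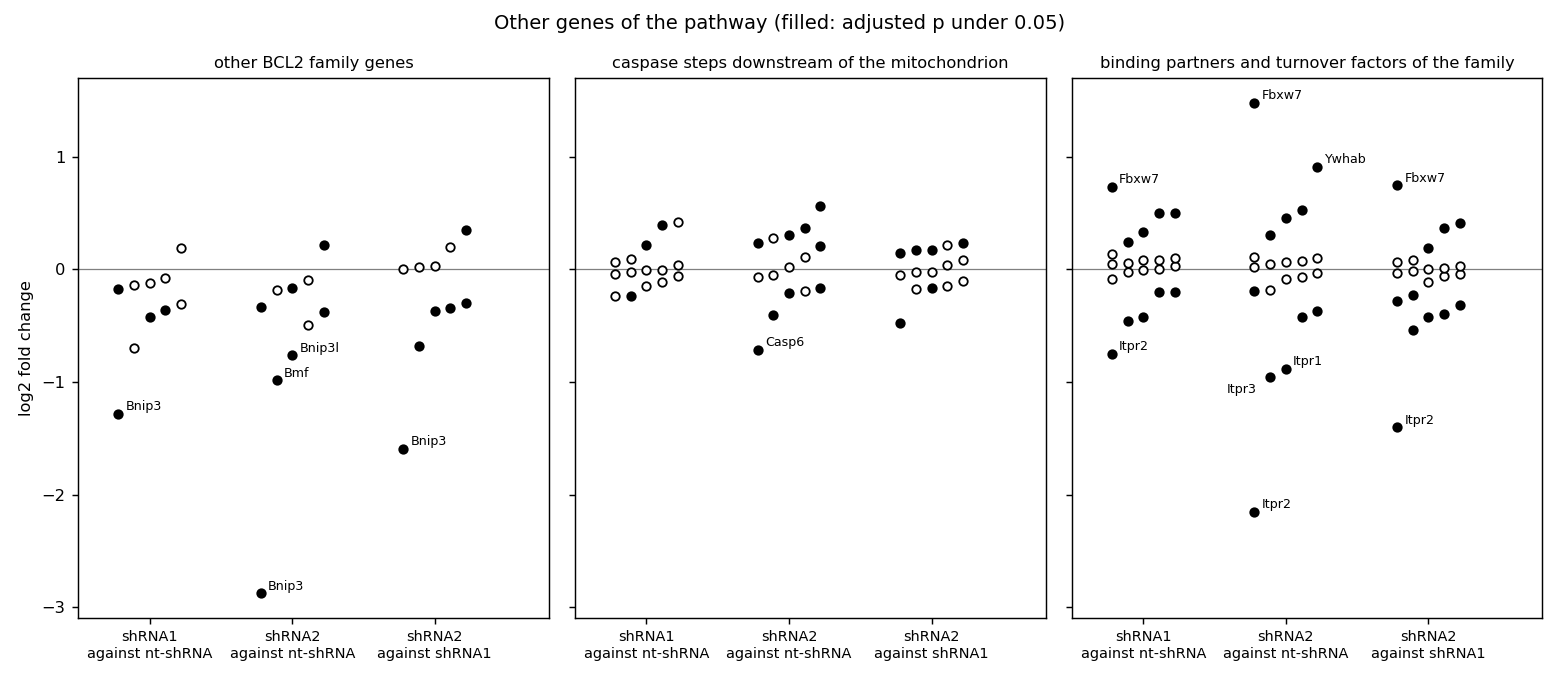
Log2 fold changes (vertical axis) of the tested genes in 3 lists around the family, in the 3 comparisons; each point is a gene, filled where the edgeR adjusted p is under 0.05, and genes beyond 0.7 on the log2 scale are named. Bnip3 (-2.88) and Itpr2 (-2.16) are the lowest points and Fbxw7 (1.48) the highest, all with shRNA2 against nt-shRNA.

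The last list holds genes whose products bind the family or set its protein turnover. Of 22 such genes, 21 were tested, with 5 called higher and 5 lower under shRNA1 (13.8% and 17.1% of all tested genes) and 5 higher and 6 lower under shRNA2 (27.2% and 28.7% of all, near the shares in the list). The medians were 0.05 and 0.02. Fbxw7 encodes the substrate receptor of a ubiquitin ligase whose targets include MCL1. It stood at 26.1 and 27.3 CPM with nt-shRNA, at 45.1, 45.6 and 42.7 CPM with shRNA1 and at 76.4, 85.3 and 61.9 CPM with shRNA2, with 3 separate groups of values. Fbxw7 rose by 0.73 under shRNA1 (SE 0.103; edgeR adjusted p = 3.16e-05) and by 1.48 under shRNA2 (SE 0.103; edgeR adjusted p = 1.27e-09). Ywhab, one of the 14-3-3 proteins, rose by 0.50 and by 0.91 (edgeR adjusted p = 2.16e-05 and 2.8e-09). Other 14-3-3 genes of the list, named after their values were seen, were called lower: Ywhae (-0.20 and -0.19; edgeR adjusted p = 0.0116 and 0.00895), Ywhaq (-0.20 and -0.42; 0.0201 and 1.04e-05) and, under shRNA2, Ywhag (-0.37; 5.43e-05). Ywhah, Ywhaz and Sfn, the remaining 14-3-3 genes of the list, were called under neither hairpin. For Sfn the differences were 0.14 and -0.18 (edgeR adjusted p = 0.213 and 0.0616). Between the hairpins, Sfn was called lower with shRNA2 (-0.32, edgeR adjusted p = 0.00236).

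The genes for the inositol trisphosphate receptors, calcium channels of the endoplasmic reticulum that BCL2 proteins bind, were lower in every KD library than in either control. Itpr1 stood at 201 and 199 CPM with nt-shRNA, at 147, 139 and 149 CPM with shRNA1 and at 114, 101 and 110 CPM with shRNA2. It fell by 0.46 under shRNA1 (edgeR adjusted p = 2.26e-05) and fell by 0.88 under shRNA2 (edgeR adjusted p = 1.67e-09). Itpr2 fell by 0.75 and fell by 2.16 (edgeR adjusted p = 0.000137 and 3.55e-10). Itpr3, named after its values were seen, fell by 0.42 and fell by 0.96 (edgeR adjusted p = 0.00282 and 1.5e-07). Between the hairpins, Fbxw7 (0.75), Itpr1 (-0.42), Itpr2 (-1.40) and Itpr3 (-0.53) all passed the test (edgeR adjusted p = 5.66e-06, 2.74e-05, 9.14e-07 and 0.000195). In that comparison, 1 other BCL2 family gene was called higher and 5 lower, 4 caspase-list genes higher and 2 lower, and 4 partner genes higher and 7 lower, beside 16.9% of all tested genes higher and 18.7% lower.

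Finally, the genes whose pattern over the 8 libraries was closest to that of a member were listed for Bid and Bcl2l2, by the root mean square difference of centred log2 CPM. Closest to Bid were Lap3 (0.0405), Snhg5 (0.0458) and Mettl17 (0.0507), where the median over all genes was 0.339. Closest to Bcl2l2 were Adrb3 (0.0477), Rps7 (0.0491) and Pop5 (0.0513), where the median was 0.282. All 6 follow the step between groups that defines the member, so the likeness describes these 8 libraries alone.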

How the data were processed

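RNA was measured in 8 libraries of R1 mESCs. Reads were aligned by the authors with STAR, and raw counts of exonic fragments from featureCounts 1.6.2 (GENCODE M24, mm10) were deposited with each gene's length. The counting command in the file header sets no option for strand, shared or multi-mapped fragments, so by the tool's defaults strand was not used and such fragments were left out. Symbols came from GENCODE M21 (55144 identifiers matched).

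In edgeR 4.0.16 (R 4.3.3), genes kept by filterByExpr (minimum count 10) were scaled by TMM, and 1 unblocked quasi-likelihood model of the 3 groups was fitted over all 8 libraries (glmQLFit, glmQLFTest). Standard errors came from the F statistic. TPM used the deposited length over all genes. The edgeR fit had a biological coefficient of variation of 0.0638. Intervals are 95% and cover the spread between libraries. Pairs of libraries within a group differed with a chi-square of 3.12 to 12.2 per gene, so none repeated another.

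Members and lists were chosen with earlier results of these data known. Named are all members, Eftud2, of each other list the 2 genes with the smallest adjusted p in each direction under shRNA2, and 3 genes closest to the anti-death and the pro-death member with the smallest adjusted p; others are said to be named after their values were seen. The 19 alternatives per comparison were DESeq2 1.42.0, its size factors, library size alone, other filters, the replicate block, length and GC offsets with and without it, only the groups compared, and each library left out. In simulated counts for shRNA2 against nt-shRNA (17082 genes), 41 of 41 genes raised 2-fold, 49 of 54 raised 1.5-fold, 41 of 53 lowered to 0.667 and 48 of 52 lowered to 0.5 were recovered, and 3.76% of calls were false. There, few genes were changed, all with means above 1 CPM, and 1 spread served all genes. In the data, 9758 genes were called under shRNA2 and Bcl2 was under 1 CPM, so the simulated rates may not carry over to these calls. Splicing events, protein and qPCR data were not analysed here.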

Additional observations from a re-analysis of the deposited data

Results flagged for a closer look

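The effect of shRNA2 differed from that of shRNA1 by the direct test in 4 of the 10 members, 3 higher and 1 lower. Of all tested genes, 16.9% were called higher and 18.7% lower in this comparison, so the number of members called does not set the family apart. Relative to shRNA1, shRNA2 libraries were 0.54 higher in Bid (edgeR adjusted p = 3.79e-06), 0.48 higher in Bok (edgeR adjusted p = 0.00331), 0.22 higher in Bak1 (edgeR adjusted p = 0.023) and -0.88 in Bik (edgeR adjusted p = 0.0166), on the log2 scale. In each, 3 of 3 shRNA2 libraries lay beyond all shRNA1 libraries, and the share of all tested genes that did so was not counted. The Bak1 and Bik differences did not pass the test in 3 and in 4 of the 19 other settings.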

How the results depend on the processing

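Calls of Bid, Bok and Bik under shRNA2 and of Bcl2l2 under shRNA1 held in all 19 settings. Without nt-shRNA replicate 1, genes called under shRNA1 numbered 2948 (range over left-out libraries 2948 to 5903, against 5388), and members called numbered 1 under shRNA1 and 3 under shRNA2. Over left-out libraries, members called ranged from 1 to 2, 3 to 6 and 2 to 5 (shRNA1, shRNA2, between hairpins; 2 without shRNA2 replicate 2), calls among the other BCL2 family genes from 2 to 6 under shRNA1 and 4 to 7 under shRNA2, and those of the caspase list from 1 to 3, 5 to 9 and 2 to 5. Caspase calls under shRNA1 were 5 with the replicate block, 7 with GC content offsets and 8 with both, against 3, and between the hairpins 3 with library size alone and 3 with no filter, against 6.

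The ratios (nt-shRNA, shRNA1, shRNA2) were 3.00, 2.85 and 2.37 from CPM sums, 0.373, 0.302 and 0.266 without Mcl1, 4.19, 4.04 and 3.73 without Bid and, chosen after seeing the data, 2.04, 1.97 and 1.64 with lengths that leave out shared bases.

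Signs turned only in differences that were not called, apart from Bcl2l1 under shRNA2, which was 0.0028 with GC offsets and block. Under shRNA1, library size alone gave 0.023 for Mcl1, 0.029 for Bid and 0.078 for Bad, GC offsets 0.058 for Bad and 0.012 for Bax, GC offsets with block 0.0068 for Bak1, 0.035 for Bad and 0.094 for Bax, and left-out libraries -0.019 to 0.060 for Bok and -0.17 to 0.10 for Bad. Under shRNA2, library size alone gave 0.051 for Mcl1 and 0.021 for Bad, length offsets with block 0.0081 for Mcl1, GC offsets 0.12 and with block 0.096 for Bad, and left-out libraries -0.20 to 0.068 for Bad. Bcl2l11 under shRNA2 was -0.0049 with no filter, -0.0100 with the block, -0.029 and -0.056 with length offsets without and with block, -0.055 and -0.088 with GC offsets without and with block, and -0.070 to 0.10 over left-out libraries. Bad between the hairpins was 0.0039 and 0.0085 with length offsets without and with block, 0.058 and 0.061 with GC offsets without and with block, and -0.074 to 0.041 over left-out libraries. The cause of these turns was not tested.

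Library size alone moved the median of all genes by 0.11 under shRNA1 and the share of higher calls from 44.7% to 70.5% (48.7% to 58.9% under shRNA2). The replicate numbers were not taken as pairs, since no library label ties them to a shared batch or day. For qPCR, the paper matched each KD replicate with an nt-shRNA replicate, and the labels do not say whether these libraries follow that matching. The group mean of each tested gene was taken off its log2 CPM, and what remained was correlated between same-numbered libraries. These correlations, all under 0.1, were 0.02 to 0.07 between the hairpins. They were -0.03 to -0.02 for shRNA1 with nt-shRNA and 0.0027 to 0.01 for shRNA2 with nt-shRNA. With the replicate block, 6018, 10034 and 6518 genes were called, against 5388, 9758 and 6204. The counts of Bcl2 and Bik limit their precision.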
